A study of Mus musculus with 28 samples.

Results

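The Wnt ligands, receptors and antagonists of the mouse kidney were followed as 47 genes, out of 18193 genes that the array annotation names by a single symbol. They were defined by symbol, and the set was chosen with earlier results of these data known. Included was every probe set annotated to 1 Wnt, Fzd, Sfrp, Dkk or Axin gene, and those of Frzb, Wif1, Lrp5, Lrp6, Lef1, Tcf7l1, Tcf7l2 and Ctnnb1. No probe set carried the symbol Tcf7 alone. The 47 genes had 94 probe sets, 72 on array design 430A and 22 on design 430B. They comprised 19 ligands, 12 receptors and co-receptors, 10 secreted antagonists and 6 intracellular genes. After a filter on dim probe sets, 59 probe sets of 35 genes were tested, covering 11 ligands, 10 receptors, 8 antagonists and all 6 intracellular genes.

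RNA of whole kidneys was measured in 14 samples, 2 in each of 7 groups, and each sample was hybridised to both array designs. The null groups (stages E12.5, E13.5, E16.5) were kidneys of embryos carrying targeted null mutations of both Hoxa11 and Hoxd11, and a sample was the kidney pair of 1 embryo whose strain is not stated. The wild type groups at the same stages were kidneys of CD-1 embryos, pooled, with the number of embryos in a pool unclear from the labels. The wild type adult group was the kidney pair of an adult mouse of unstated strain and age. Embryonic RNA (30 ng) came from a column kit and adult RNA (100 ng) from RNAzol, and all RNA passed through successive rounds of in vitro transcription. Hoxa11 and Hoxd11 are homeobox transcription factors that act redundantly in the metanephric mesenchyme. Because the Hoxa11 and Hoxd11 mutations are in the germ line, they were present in every cell of a null kidney. Genotype cannot be told apart from strain and pooling.

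Wnt proteins are secreted lipid-modified ligands that bind Frizzled receptors, together with the co-receptors Lrp5 and Lrp6 when they act through β-catenin. Sfrp proteins and Frzb bind the ligands, whereas Dkk1 and Dkk2 act on the Lrp co-receptors. Without a signal, Axin scaffolds the complex that degrades β-catenin (Ctnnb1), and with a signal β-catenin joins Lef1 and Tcf factors on target genes. In the developing kidney, Wnt9b from the ureteric epithelium induces the nephron progenitors, Wnt4 drives their conversion to epithelium, Wnt11 marks the ureteric tips, and Wnt7b comes from the ureteric stalk and collecting ducts.

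Promoter windows from 250 bases before to 50 bases after the start of transcription were available in RefSeq's table (build GRCm38.p6) for 32 of the 47 genes, 40 windows in all. They were searched on both strands for the core of the TCF/LEF site, CTTTGA or its reverse complement TCAAAG, the sequence bound by the nuclear members. It occurred in 6 of the 40 windows (15.0%), against 16.0% of 32851 windows of all genes. Windows are printed for the genes whose calls in the averaged null comparison or in the test of stage differences held under every alternative and that the table contains, with matches in capitals. These are Dkk1 (chr19:30549447-30549746, minus strand), Fzd1 (chr5:4758167-4758466, minus strand), Sfrp2 (chr3:83766071-83766370, plus strand), Tcf7l1 (chr6:72788996-72789295, minus strand) and the first of the Tcf7l2 windows (chr19:55741560-55741859, plus strand).
Dkk1: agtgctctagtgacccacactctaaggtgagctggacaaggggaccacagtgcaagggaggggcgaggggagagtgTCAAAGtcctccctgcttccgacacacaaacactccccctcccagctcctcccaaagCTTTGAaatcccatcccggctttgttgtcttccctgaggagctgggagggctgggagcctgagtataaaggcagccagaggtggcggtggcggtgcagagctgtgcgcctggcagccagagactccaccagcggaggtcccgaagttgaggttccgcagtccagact
Fzd1: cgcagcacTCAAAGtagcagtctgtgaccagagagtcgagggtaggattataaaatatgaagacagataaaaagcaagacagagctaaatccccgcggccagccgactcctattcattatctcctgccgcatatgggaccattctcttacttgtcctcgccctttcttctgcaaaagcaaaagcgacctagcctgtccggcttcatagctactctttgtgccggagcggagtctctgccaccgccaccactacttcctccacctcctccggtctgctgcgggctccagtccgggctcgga
Sfrp2: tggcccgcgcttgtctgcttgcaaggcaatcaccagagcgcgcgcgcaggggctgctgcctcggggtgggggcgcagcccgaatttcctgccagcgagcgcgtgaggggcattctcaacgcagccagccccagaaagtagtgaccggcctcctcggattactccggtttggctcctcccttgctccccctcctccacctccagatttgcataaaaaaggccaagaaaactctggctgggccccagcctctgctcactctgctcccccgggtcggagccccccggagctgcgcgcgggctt
Tcf7l1: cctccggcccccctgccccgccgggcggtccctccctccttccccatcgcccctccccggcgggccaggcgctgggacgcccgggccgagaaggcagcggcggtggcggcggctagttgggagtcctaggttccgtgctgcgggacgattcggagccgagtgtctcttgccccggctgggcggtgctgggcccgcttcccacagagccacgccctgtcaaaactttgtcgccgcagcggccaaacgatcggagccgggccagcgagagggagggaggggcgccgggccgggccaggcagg
Tcf7l2: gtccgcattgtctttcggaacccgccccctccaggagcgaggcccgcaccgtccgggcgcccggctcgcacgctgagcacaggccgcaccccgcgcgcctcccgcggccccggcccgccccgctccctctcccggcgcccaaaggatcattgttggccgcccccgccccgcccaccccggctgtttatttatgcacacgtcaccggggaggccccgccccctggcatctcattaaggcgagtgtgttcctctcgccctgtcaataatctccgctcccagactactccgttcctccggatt
The Dkk1 window held 2 matches, the first bases of which lay at -174 and -117 from the start, and the Fzd1 window held 1, at -242. The Sfrp2, Tcf7l1 and Tcf7l2 windows held none. A match describes the letters only, and binding was not measured.

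Levels are the deposited linear MAS5 signals, whose trimmed mean was 1500.3 to 1500.7 on every array after the authors' scaling. The median signal of an array differed between genotypes, in opposite directions on the 2 designs. On 430A it was 517 ± 31.0 (SD) in 6 null samples, against 432 ± 42.1 in 6 wild type embryonic samples. On 430B it was 553 ± 122 in null samples, against 693 ± 90.9 in wild type embryonic samples. The two-sided exact permutation test gave p = 0.00866 on 430A and p = 0.0498 on 430B. The part of the median in disagreements between 430A and 430B probe sets was not tested. Differences are on the log2 scale with the SE that limma fitted, 2 samples standing in each group, and positive values mean a higher signal in the first-named group. The words rose and fell are kept for genes whose p adjusted over all 30564 tested probe sets was under 0.05 (called), and each gene is read by 1 probe set unless another is named. The Hoxa11 probe set fell in nulls at each stage (-2.66, -2.53 and -3.21). The Hoxd11 probe set did not pass the filter, and its signals overlapped between genotypes. They were 300.3 and 529.6 in null kidneys, against 395 and 418 in wild type kidneys at E12.5. At E13.5 they were 406 and 448 in null kidneys, against 415 and 349.7 in wild type kidneys, and at E16.5 272 and 391 in null kidneys, against 327 and 372 in wild type kidneys, so no stage showed a loss in nulls. Where this probe set lies relative to the Hoxd11 mutation is not given in the sources used here. The actin 3'/5' signal ratio, a measure of how far amplified RNA reaches towards the 5' end, was 1.72 ± 0.438 (SD) in the 6 null samples, against 3.46 ± 0.495 in the 6 wild type embryonic samples on 430A (two-sided exact permutation p = 0.00216, the smallest that 6 against 6 allow). No null array was scanned on the same day as a wild type array of its stage, and the null E16.5 arrays alone were read on another type of scanner, so genotype cannot be told apart from the day of scanning. Proximal tubule markers summed to 135513 to 146313 in adult kidneys, against 8648 to 8982 in wild type kidneys at E16.5, and the markers of the embryonic kidney are given beside the results. Nothing states that the samples of a group came from separate litters, so p-values measure the spread between these samples. For limma this was 1 estimate of the spread per probe set shared by all 7 groups, null, wild type and adult together.

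By the probe sets read, the receptors Fzd1, Fzd2 and Fzd8 and the Frizzled-related antagonists Sfrp1 and Sfrp2 rose in nulls at every stage. The antagonist Dkk1 fell at E12.5 and E16.5. Another Fzd8 probe set fell at E16.5, and further probe sets of Fzd1, Fzd2 and Sfrp1 were not called at some stages. Of the 35 member genes, 10 rose and 2 fell at E12.5, where 18.4% of the 14128 genes tested were called (10.9% rose, 7.45% fell). At E13.5, 11 rose and 1 fell, against 23.8% of genes called (14.6% rose, 9.24% fell). At E16.5, 7 rose and 4 fell, a share below the 35.9% called among genes (20.8% rose, 15.1% fell). No gene other than these 5 rose at all 3 stages, none fell at all 3, and 17 genes were called at no stage. Member medians on the log2 scale were 0.50, 0.70 and -0.19 at the successive stages, beside -0.05, -0.02 and 0.02 over all genes tested. Averaged over the stages, 12 members rose and 4 fell, a share of 45.7% near the background of 49.8% of genes called (26.6% rose, 23.2% fell). RNA of whole kidneys cannot tell apart more cells of a type from more RNA per cell.

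With the log2 actin ratio as a covariate, far fewer calls were made. Of the genes called, Fzd1 alone kept its call at E12.5 (adjusted p = 0.0486), Fzd2 alone at E13.5 (adjusted p = 0.0337), and Dkk1, Fzd1, Fzd2, Sfrp2, Tcf7l1 and Tcf7l2 at E16.5. In the stage average Dkk1, Fzd1, Fzd2 and Sfrp2 kept it. The ratio did not overlap between genotypes, at 1.26 to 2.27 in null and 2.88 to 4.13 in wild type embryonic samples on 430A. A call lost or kept in this fit therefore cannot tell RNA amplification apart from genotype. How far amplification contributes to any of these differences was not tested.

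**Figure D1:**
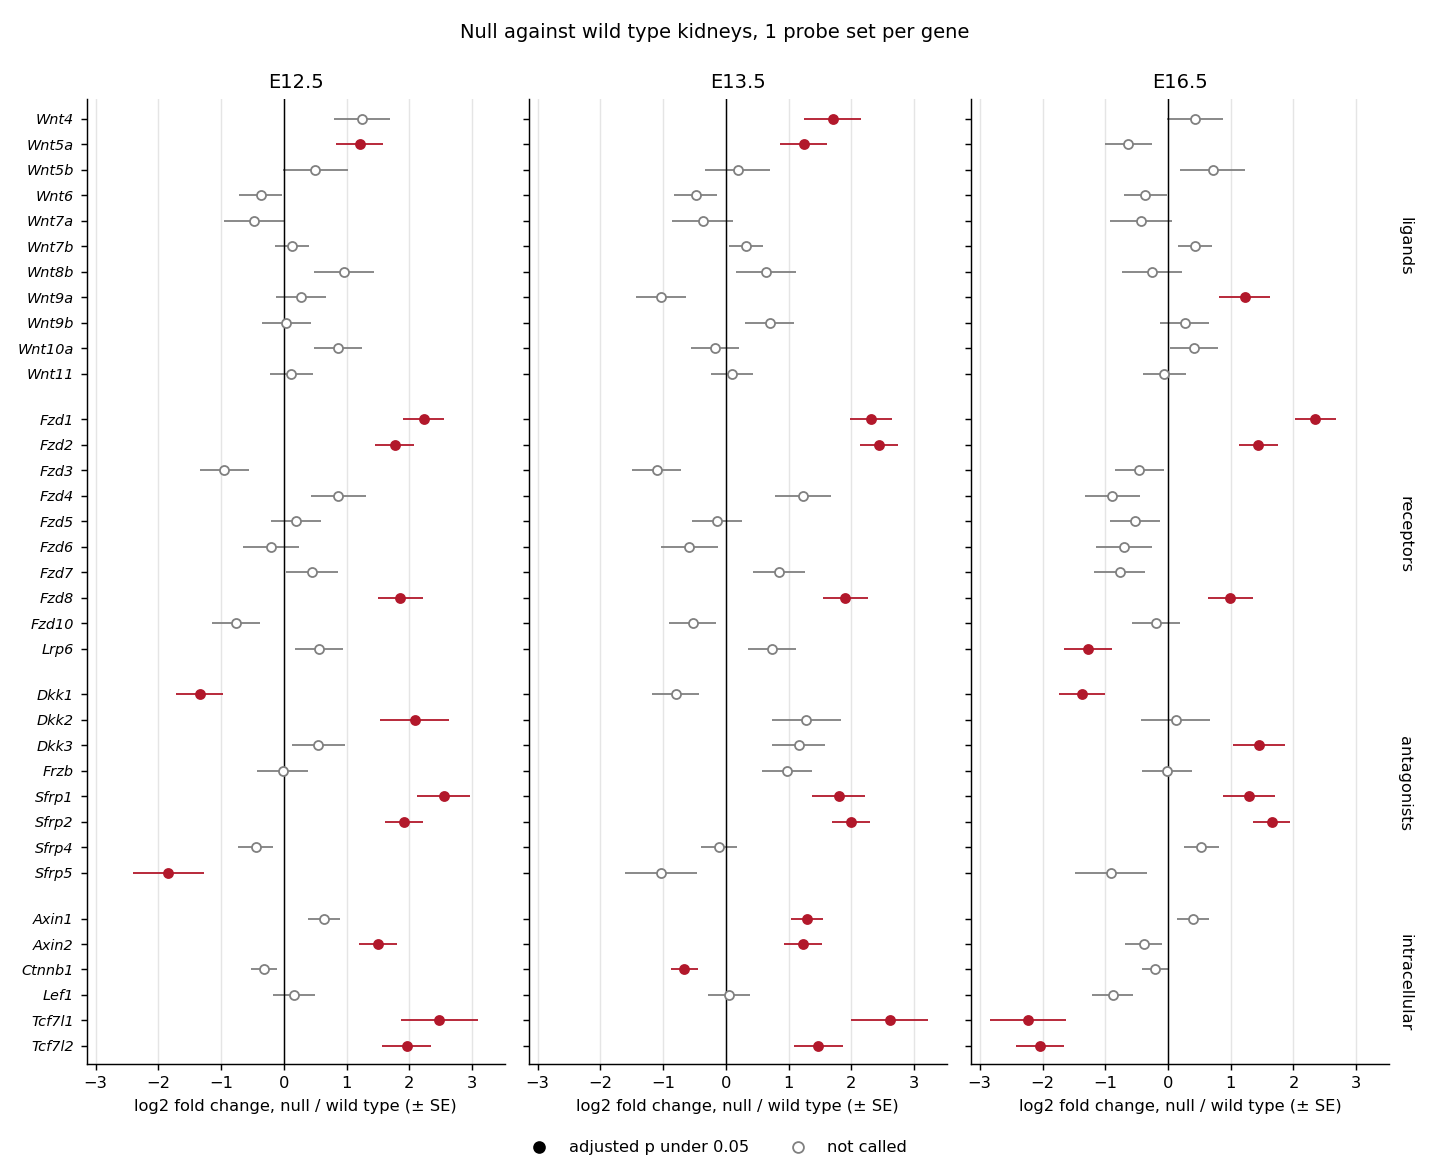
Log2 fold change of null over wild type kidneys (x axis, ± SE, n = 2 samples per group) for the 35 tested member genes, grouped by role, at each stage. Filled red points passed an adjusted p of 0.05. Fzd1, Fzd2, Fzd8, Sfrp1 and Sfrp2 lie to the right of 0 in all 3 panels, while Tcf7l1 and Tcf7l2 lie to the right at E12.5 and E13.5 and to the left at E16.5.

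Among the receptors, 3 of 10 rose at each stage and 1, Lrp6, fell at E16.5. Of all genes tested, 10.9%, 14.6% and 20.8% rose at the successive stages, and 7.45%, 9.24% and 15.1% fell. Fzd1 (1422985_at), which can signal through β-catenin, differed by nearly the same amount at each stage. Signals at E12.5 were 591 and 686 in null kidneys, against 109.7 and 169 in wild type kidneys. At E13.5 they were 512 and 481 in null kidneys, against 60.6 and 116 in wild type kidneys, and at E16.5 506 and 705 in null kidneys, against 134 and 102 in wild type kidneys. Every null signal was above every wild type signal, and 1 wild type signal at E13.5 lay below the floor of 86.1 to which dim values were set. The log2 fold changes were 2.23 ± 0.33, 2.31 ± 0.33 and 2.35 ± 0.33 (adjusted p = 0.000772, 0.000607 and 0.000272), or 4.68-, 4.96- and 5.11-fold on the floored scale. The second Fzd1 probe set, 1437284_at on 430B, gave smaller differences of 0.68 ± 0.34, 0.73 ± 0.34 and 1.13 ± 0.34, of which the E16.5 difference alone was called (adjusted p = 0.019).

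Fzd2 (1418532_at), a Frizzled receptor linked to Wnt5a signalling, was also higher. The E12.5 signals were 10987 and 20996 in null kidneys, against 4591 and 4301 in wild type kidneys. The E13.5 signals were 13535 and 14672 in null kidneys, against 2885 and 2323 in wild type kidneys, and those at E16.5 10810.5 and 16243 in null kidneys, against 4785 and 4971 in wild type kidneys. The groups did not overlap at any stage. Its log2 fold changes were 1.77 ± 0.31 at E12.5, 2.44 ± 0.31 at E13.5 and 1.44 ± 0.31 at E16.5 (adjusted p = 0.002, 0.000285 and 0.00329). The probe set 1418533_s_at, whose suffix marks probes shared between transcripts, also rose at every stage, by 1.38, 1.45 and 0.84. Its remaining probe set, 1418534_at, was not called at any stage, with 0.50 ± 0.31, 0.12 ± 0.31 and -0.06 ± 0.31.

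Fzd8 (1423348_at), a Frizzled present in ureteric tips of the mouse kidney, had signals of 1724 and 1879 in null kidneys, against 540.3 and 455 in wild type kidneys at E12.5. The signals were 1654 and 1318 in null kidneys, against 469.7 and 332 in wild type kidneys at E13.5, and 1195 and 1332 in null kidneys, against 663 and 610.2 in wild type kidneys at E16.5. The gap between genotypes was smallest at E16.5, where the groups still did not overlap. Fzd8 rose by 1.86 ± 0.36, 1.90 ± 0.36 and 0.99 ± 0.36. The E16.5 call (adjusted p = 0.0496) was lost under quantile normalization, median centring, no filter, scan day as a block and the actin ratio, and without any one of its 4 samples. The 430B probe set 1445815_at went the other way at E16.5, with 586 and 479 in null kidneys, against 2090.3 and 1089 in wild type kidneys (-1.51 ± 0.50, adjusted p = 0.0311). The direction for Fzd8 at E16.5 therefore depends on the probe set.

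Fzd3 (1449730_s_at), a receptor of planar polarity and axon guidance, fell in the average (-0.83 ± 0.23, adjusted p = 0.00886) and was not called at any single stage by the probe set read. It had 827 and 518 in null kidneys, against 1181 and 1346 in wild type kidneys at E12.5. They were 839 and 481 in null kidneys, against 1391 and 1328 in wild type kidneys at E13.5, and 1159 and 945 in null kidneys, against 1482 and 1398 in wild type kidneys at E16.5. All 6 null signals were below all 6 wild type embryonic signals. Its 430B probe set 1434788_at fell at E12.5 (-0.95 ± 0.31, adjusted p = 0.0437) and in the average (-0.64 ± 0.18). The probe sets 1450135_at (-0.17 ± 0.22) and 1421157_at (0.17 ± 0.18) were not called in the average or at any stage, the second standing at 0.69 ± 0.32 at E16.5. Fzd4, Fzd5, Fzd6, Fzd7 and Fzd10 were not called at any stage by the probe sets read, with differences between -0.89 (Fzd4 at E16.5) and 1.23 (Fzd4 at E13.5). Fzd4, which also serves as the norrin receptor of blood vessels, rose at E16.5 on the 430B probe set 1434756_at only (1.33 ± 0.41, adjusted p = 0.0214). The co-receptor Lrp6 is described with the genes whose difference changed between stages.

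**Figure D2:**
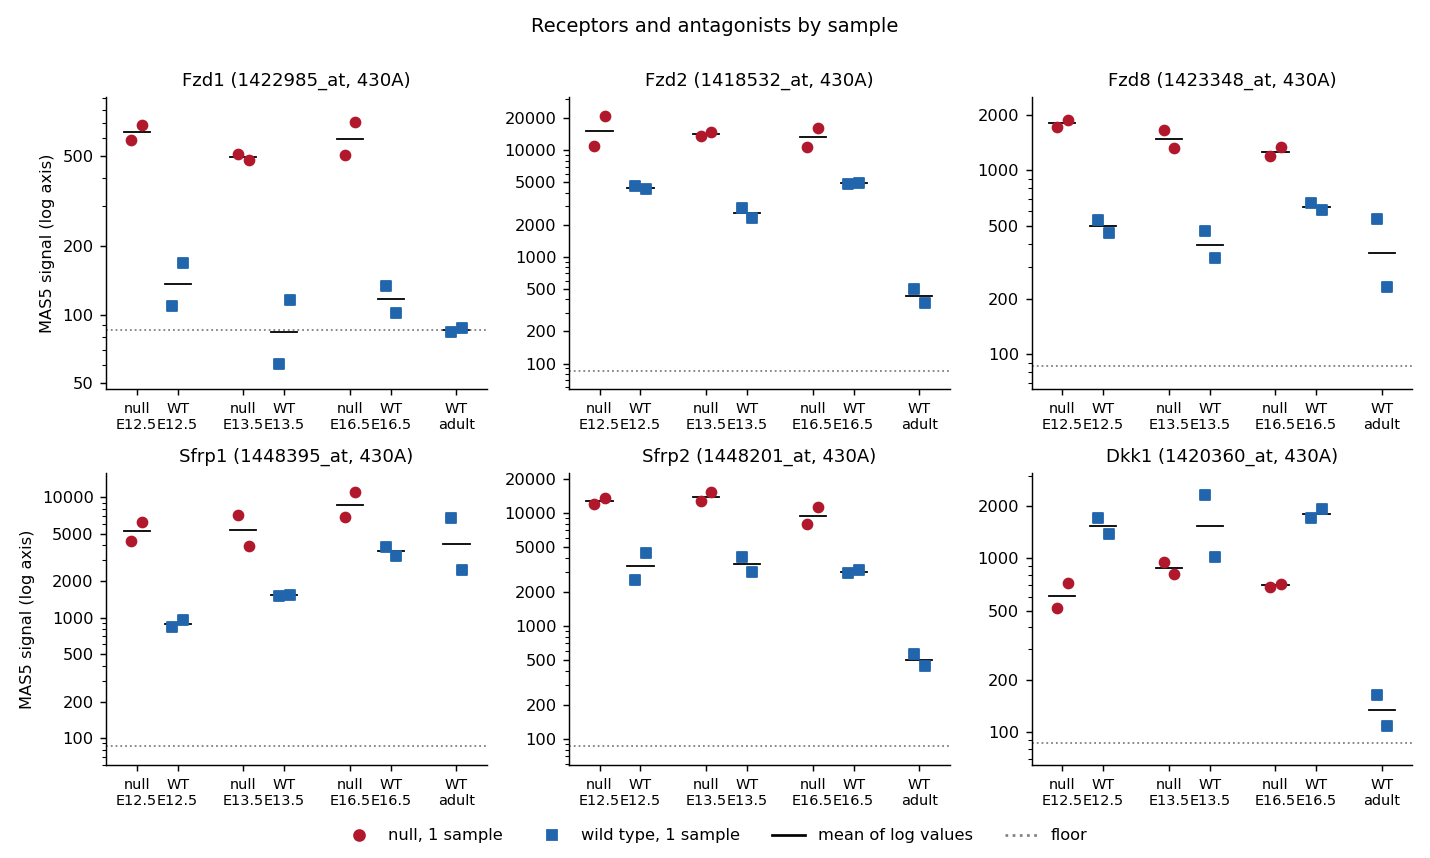
MAS5 signal (log axis) in every sample for Fzd1, Fzd2, Fzd8, Sfrp1, Sfrp2 and Dkk1, each by the probe set read. Red circles are null samples, blue squares wild type samples, black bars the mean of the 2 log values and the dotted line the floor. In the first 5 panels both null samples lie above both wild type samples at each embryonic stage, and in the Dkk1 panel both lie below.

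Antagonists moved in both directions, with 3 of 8 rising and 2 falling at E12.5. The E13.5 count was 2 rising and 0 falling, and the E16.5 count 3 rising and 1 falling. These counts stand beside 10.9%, 14.6% and 20.8% of all genes rising at the successive stages, and 7.45%, 9.24% and 15.1% falling. Sfrp1 (1448395_at), a secreted Wnt-binding protein, had the largest difference at E12.5 among the 35 probe sets read. At E12.5 its signals were 4359.5 and 6270 in null kidneys, against 841 and 947 in wild type kidneys. At E13.5 they were 7180.1 and 3916 in null kidneys, against 1518 and 1537 in wild type kidneys, and at E16.5 6880.2 and 10961 in null kidneys, against 3872 and 3274 in wild type kidneys. No null signal reached down to a wild type signal of the same stage. Sfrp1 rose by 2.55 ± 0.42, 1.80 ± 0.42 and 1.29 ± 0.42 (adjusted p = 0.0014, 0.00871 and 0.03), which is 5.86-, 3.47- and 2.44-fold. All 5 Sfrp1 probe sets rose at E12.5 and E13.5, by 1.26 to 2.55 and by 1.70 to 3.26. At E16.5, 1416594_at (3.21 ± 0.55) and 1428136_at (2.44 ± 0.37) rose as well, while 1460187_at (0.91 ± 0.53) and 1438620_x_at (-0.41 ± 0.40) were not called. With the actin ratio as a covariate none of the Sfrp1 calls of the probe set read was kept, the adjusted p being 0.0613, 0.59 and 0.233.

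Sfrp2 (1448201_at), a relative of Sfrp1 and known as a target of Pax2 and Wnt4 in kidney mesenchyme, had a single tested probe set. Signals at E12.5 were 11897 and 13698 in null kidneys, against 2568 and 4420.1 in wild type kidneys. The E13.5 signals were 12768 and 15290.1 in null kidneys, against 4100 and 3004 in wild type kidneys, and those at E16.5 8009 and 11182 in null kidneys, against 2926 and 3116 in wild type kidneys. The null samples were above the wild type samples at every stage. Sfrp2 rose by 1.92 ± 0.30, 1.99 ± 0.30 and 1.65 ± 0.30 (adjusted p = 0.000926, 0.000729 and 0.00113), or 3.79-, 3.98- and 3.13-fold. These calls were kept whichever sample was left out.

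Dkk1 (1420360_at), an inhibitor that removes Lrp co-receptors from signalling, was lower in nulls. The E12.5 signals were 519 and 717 in null kidneys, against 1719.5 and 1378 in wild type kidneys. They were 959 and 817 in null kidneys, against 2312 and 1024 in wild type kidneys at E13.5, and 687 and 712 in null kidneys, against 1702 and 1924 in wild type kidneys at E16.5. All null signals lay below the wild type signals of their stage. Dkk1 fell at E12.5 (-1.34 ± 0.37, adjusted p = 0.0249) and E16.5 (-1.37 ± 0.37, adjusted p = 0.0125) and was not called at E13.5 (-0.80 ± 0.37, adjusted p = 0.139). The second probe set, 1458232_at on 430B, had 305 and 270 in null kidneys, against 4195 and 4100 in wild type kidneys at E16.5, a log2 fold change of -3.85 ± 0.48 (adjusted p = 0.000123). It fell at E13.5 too (-1.95 ± 0.48, adjusted p = 0.011). The stage average was -1.17 ± 0.22 on the first and -2.19 ± 0.28 on the second probe set. Without 1 sample, the E12.5 call of the probe set read was lost in all 4 cases and the E16.5 call in 3 of 4.

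Dkk2 (1420512_at), another ligand of the Lrp co-receptors, rose at E12.5, with 1554 and 1431 in null kidneys, against 336 and 367 in wild type kidneys (2.09 ± 0.55, adjusted p = 0.0194). The call was lost whichever of the 4 samples was left out. At E13.5 the null samples stood apart from each other, with 4249 and 904, against 619 and 1053 in wild type kidneys, and the groups overlapped. At E16.5 the signals were 1919 and 1945 in null kidneys, against 1674 and 1878 in wild type kidneys, a difference of 0.12 ± 0.55. Dkk3 (1448669_at), a divergent Dickkopf protein, rose at E16.5 (1.45 ± 0.42) and in the average (1.06 ± 0.24). It had 879 and 1542 in null kidneys, against 567 and 1113 in wild type kidneys at E12.5. At E13.5 they were 1717 and 1832 in null kidneys, against 907 and 694 in wild type kidneys, and at E16.5 2995 and 2497 in null kidneys, against 877 and 1135 in wild type kidneys. The groups overlapped at E12.5 alone. Its other probe set 1417312_at also rose at E16.5 (1.37 ± 0.40).

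Sfrp5 (1436075_at), a further Frizzled-related antagonist, was lower in nulls by the probe set read. Its signals were 576 and 249 in null kidneys, against 1282 and 1437 in wild type kidneys at E12.5. They were 1122 and 480.1 in null kidneys, against 1509 and 1487 in wild type kidneys at E13.5, and 239 and 610.5 in null kidneys, against 790.4 and 651 in wild type kidneys at E16.5. The samples did not overlap at any stage, and the call was made at E12.5 (-1.84 ± 0.57, adjusted p = 0.0376) and in the average (-1.26 ± 0.33, adjusted p = 0.00668). The 430A probe set 1423023_at, which was not tested, ran the other way early. It had 377 and 292 in null kidneys, against 174 and 216 in wild type kidneys at E12.5. At E13.5 it had 321 and 445 in null kidneys, against 209 and 181 in wild type kidneys, and at E16.5 the groups overlapped. The direction for Sfrp5 at the early stages therefore depends on the probe set. Sfrp4 and Frzb were not called, with differences between -0.45 (Sfrp4 at E12.5) and 0.97 (Frzb at E13.5).

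Among the 6 intracellular members, 3 rose and 0 fell at E12.5, 4 rose and 1 fell at E13.5, and 0 rose and 2 fell at E16.5. The shares of all genes were 10.9%, 14.6% and 20.8% rising at these stages, and 7.45%, 9.24% and 15.1% falling. Axin1 (1426966_at), the constitutive scaffold of the destruction complex, had 6623 and 6449 in null kidneys, against 2922 and 2434 in wild type kidneys at E13.5, and rose by 1.29 ± 0.26 (adjusted p = 0.00371). Its signals were 6673 and 6234 in null kidneys, against 3906 and 4379 in wild type kidneys at E12.5, and 4258 and 6804 in null kidneys, against 4113 and 4056 in wild type kidneys at E16.5. These groups did not overlap, and neither difference was called (0.64 ± 0.26 and 0.40 ± 0.26). The dimmer probe set 1426967_at rose at E13.5 (1.85 ± 0.53) and E16.5 (1.66 ± 0.53). Lef1 (1454734_at), a β-catenin partner, was not called at any stage (0.16 ± 0.33, 0.05 ± 0.33 and -0.88 ± 0.33).

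Ctnnb1, which encodes β-catenin, gave opposite answers by probe set. The probe set read, 1420811_a_at, fell at E13.5 (-0.66 ± 0.21, adjusted p = 0.0364) and in the average (-0.39 ± 0.12). At E12.5 its signals were 16042 and 17525 in null kidneys, against 21058 and 20781 in wild type kidneys. The E13.5 signals were 20889.5 and 19978 in null kidneys, against 27429 and 38057 in wild type kidneys, and those at E16.5 22816 and 20548 in null kidneys, against 26012 and 23850.3 in wild type kidneys. The null signals lay below the wild type signals at each stage. The probe set 1450008_a_at rose at E13.5 (1.06 ± 0.28) and E16.5 (1.69 ± 0.28). The remaining one, 1430533_a_at, rose at both stages too, with 5887 and 6862 in null kidneys, against 1168 and 429.7 in wild type kidneys at E16.5 (3.17 ± 0.44). No direction can be given for the gene. Under quantile normalization the probe set read no longer fell (0.09 at E13.5).

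Of the 11 tested ligands, 1 rose at E12.5, 2 at E13.5 and 1 at E16.5, and none fell at any stage. Over all genes tested, 10.9%, 14.6% and 20.8% rose at these stages, and 7.45%, 9.24% and 15.1% fell. Wnt4 (1450782_at), the signal for mesenchymal conversion, had the largest difference among the ligands read. Signals at E12.5 were 7039.6 and 10324 in null kidneys, against 4029 and 3186 in wild type kidneys. They were 11395 and 14355 in null kidneys, against 4531 and 3424 in wild type kidneys at E13.5, and 4623 and 6140.4 in null kidneys, against 3262 and 4784 in wild type kidneys at E16.5. The null samples were above the wild type samples at E12.5 and E13.5 and overlapped them at E16.5. Wnt4 rose at E13.5 (1.70 ± 0.45, adjusted p = 0.0156) and in the average (1.13 ± 0.26, adjusted p = 0.00317), while at E12.5 the adjusted p was 0.0669. The 430B probe set 1441687_at gave 1.18 ± 0.42, 1.50 ± 0.42 and 0.89 ± 0.42, and the E13.5 value was called. With the actin ratio the average fell to 0.29 (adjusted p = 0.676).

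The ureteric ligands were not called. Wnt11 (1450772_at), the tip ligand, had 1532 and 2705 in null kidneys, against 1824 and 1917 in wild type kidneys at E12.5. It had 1585 and 2423 in null kidneys, against 1842 and 1824 in wild type kidneys at E13.5 and 894 and 1341 in null kidneys, against 1059 and 1222 in wild type kidneys at E16.5, and the groups overlapped at each stage. Its differences were 0.12 ± 0.34, 0.10 ± 0.34 and -0.06 ± 0.34. Wnt9b (1443197_at), the inducer, gave 0.04 ± 0.39, 0.70 ± 0.39 and 0.27 ± 0.39, and Wnt7b (1420892_at) gave 0.13 ± 0.27, 0.32 ± 0.27 and 0.43 ± 0.27. Wnt6, also a ureteric ligand, lay between -0.48 and -0.36. Wnt5b, Wnt7a, Wnt8b and Wnt10a were not called by the probe sets read, although the Wnt5b probe set 1422602_a_at rose at E13.5 (2.66 ± 0.56), where a wild type signal lay below the floor. With 2 samples a group, an SE such as the 0.34 of Wnt11 leaves small differences undetectable.

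For 6 genes the difference between genotypes itself changed between stages by a moderated F test, 17.1% of the 35 members against 10.9% of all genes. For Tcf7l1 and Tcf7l2 the direction reversed. Tcf7l1 (1450117_at), a mostly repressive Tcf factor, had signals of 5736 and 7432 in null kidneys, against 1306 and 1048 in wild type kidneys at E12.5, and of 7201 and 6339.9 in null kidneys, against 1251 and 978 in wild type kidneys at E13.5. At E16.5 they were 1909.6 and 2695 in null kidneys, against 9919 and 11409 in wild type kidneys. The null samples thus stood above wild type early and below it late, with no overlap. Tcf7l1 rose by 2.48 ± 0.61 and 2.61 ± 0.61 and fell at E16.5 (-2.23 ± 0.61). The effect at E16.5 was -4.84 ± 0.86 against that at E13.5 (adjusted p of the F test = 0.00341). Its other probe set 1436207_at showed no reversal, with 1.05 ± 0.26 (called), 0.60 ± 0.26 and 0.20 ± 0.26.

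Tcf7l2 (1429428_at), a Tcf factor of epithelia, followed the same course on its single tested probe set. The E12.5 signals were 844 and 806 in null kidneys, against 287 and 156 in wild type kidneys. At E13.5 they were 685 and 488 in null kidneys, against 221 and 198 in wild type kidneys, and at E16.5 344 and 314 in null kidneys, against 1943 and 935 in wild type kidneys. Null kidneys were higher at the first stages and lower at E16.5, again without overlap. Tcf7l2 rose by 1.96 ± 0.39 and 1.47 ± 0.39, fell at E16.5 (-2.04 ± 0.39), and had an adjusted p of 0.000929 in the F test. The F test of both genes held under every alternative and whichever sample was left out.

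Axin2 (1436845_at), a feedback inhibitor that β-catenin signalling induces, was higher in early nulls. It had 1315 and 1754 in null kidneys, against 498 and 579 in wild type kidneys at E12.5. The E13.5 signals were 1746 and 1236 in null kidneys, against 661 and 596 in wild type kidneys, and those at E16.5 775 and 946 in null kidneys, against 1269 and 992 in wild type kidneys. The groups did not overlap, and the order of the genotypes turned at E16.5. Axin2 rose by 1.50 ± 0.30 and 1.23 ± 0.30, and at E16.5 the difference was -0.39 ± 0.30 (adjusted p = 0.323). The F test gave an adjusted p of 0.0151, which was 0.078 without null E16.5 replicate 1 and 0.0911 without wild type E16.5 replicate 1. Lrp6 (1428500_at), the co-receptor, was not called early (0.56 ± 0.38 and 0.73 ± 0.38) and fell at E16.5, with 1424 and 1565 in null kidneys, against 4373 and 3001 in wild type kidneys (-1.28 ± 0.38). Null E13.5 replicate 1 stood high at 4227, against 1736 in replicate 2. The F test (adjusted p = 0.0353) was not passed without any one of 8 of the 12 embryonic samples.

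Wnt5a (1436791_at), a ligand of β-catenin-independent signalling, had 636 and 617 in null kidneys, against 351 and 209 in wild type kidneys at E12.5, and 695 and 561 in null kidneys, against 353 and 199 in wild type kidneys at E13.5. At E16.5 it had 1014 and 1195 in null kidneys, against 2049.5 and 1413 in wild type kidneys. Wnt5a rose by 1.21 ± 0.37 and 1.24 ± 0.37, and the E16.5 difference of -0.63 ± 0.37 was not called (F test adjusted p = 0.0358). Of its 430B probe sets, 1437673_at rose at E13.5 (1.83 ± 0.62) and 1456976_at was not called (-1.03 ± 0.54). Wnt9a (1436978_at), another ligand, ran the other way. Its signals were 648 and 554 in null kidneys, against 1392 and 1070.4 in wild type kidneys at E13.5 (-1.03 ± 0.40, adjusted p = 0.0791). At E16.5 they were 1473 and 1748 in null kidneys, against 617 and 770.2 in wild type kidneys, a rise of 1.22 ± 0.40 (F test adjusted p = 0.0408). The F tests of Wnt5a and Wnt9a were not passed when 8 and 9 of the 12 samples were left out singly, and the Wnt5a rises were lost under quantile normalization and median centring.

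**Figure D3:**
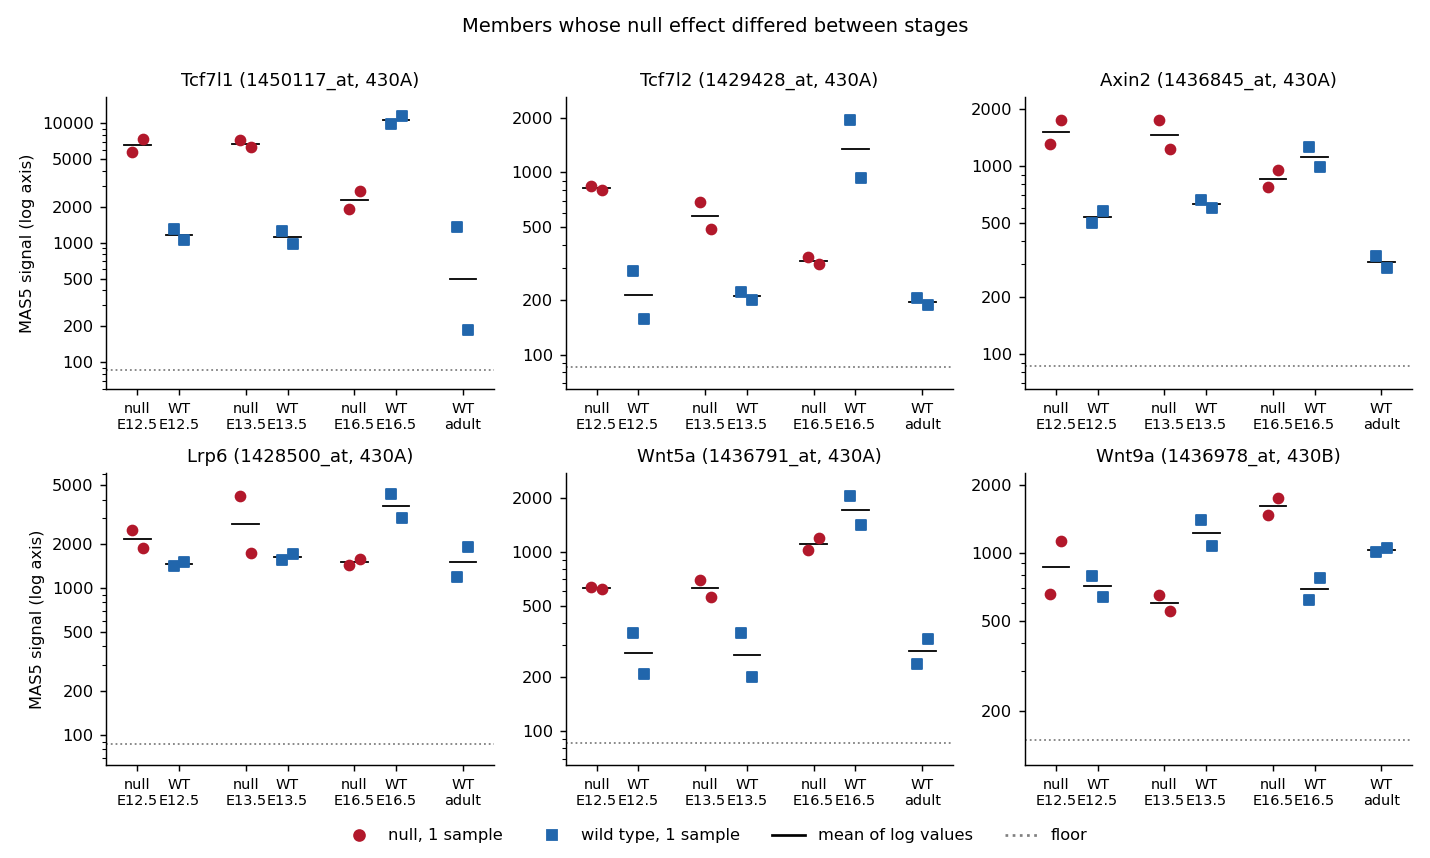
MAS5 signal (log axis) in every sample for the 6 genes whose null effect differed between stages, each by the probe set read. Red circles are null samples, blue squares wild type samples, black bars the mean of the 2 log values and the dotted line the floor. Tcf7l1 and Tcf7l2 lie above wild type at E12.5 and E13.5 and below it at E16.5.

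Of the 35 tested genes, 16 had several tested probe sets. At E12.5 no gene had called probe sets in opposite directions, at E13.5 and E16.5 there was 1 such gene, Ctnnb1 at E13.5 and Fzd8 at E16.5, and in the average there were 2, the same genes. Over all 59 member probe sets, 16 rose and 3 fell at E12.5, where 18.6% of all probe sets were called (12.4% rose, 6.19% fell). At E13.5, 22 rose and 2 fell, beside 23.4% called (14.4% rose, 8.97% fell). The E16.5 count was 16 and 6, beside 35.1% (15.9% rose, 19.2% fell), and in the average 27 rose and 7 fell, beside 46.9% (23.4% rose, 23.5% fell). In the F test 8 member probe sets were called, beside 14.3% of all. With E12.5 and E13.5 alone, without the stage read on another scanner, the average had 27 rising and 6 falling.

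**Figure D4:**
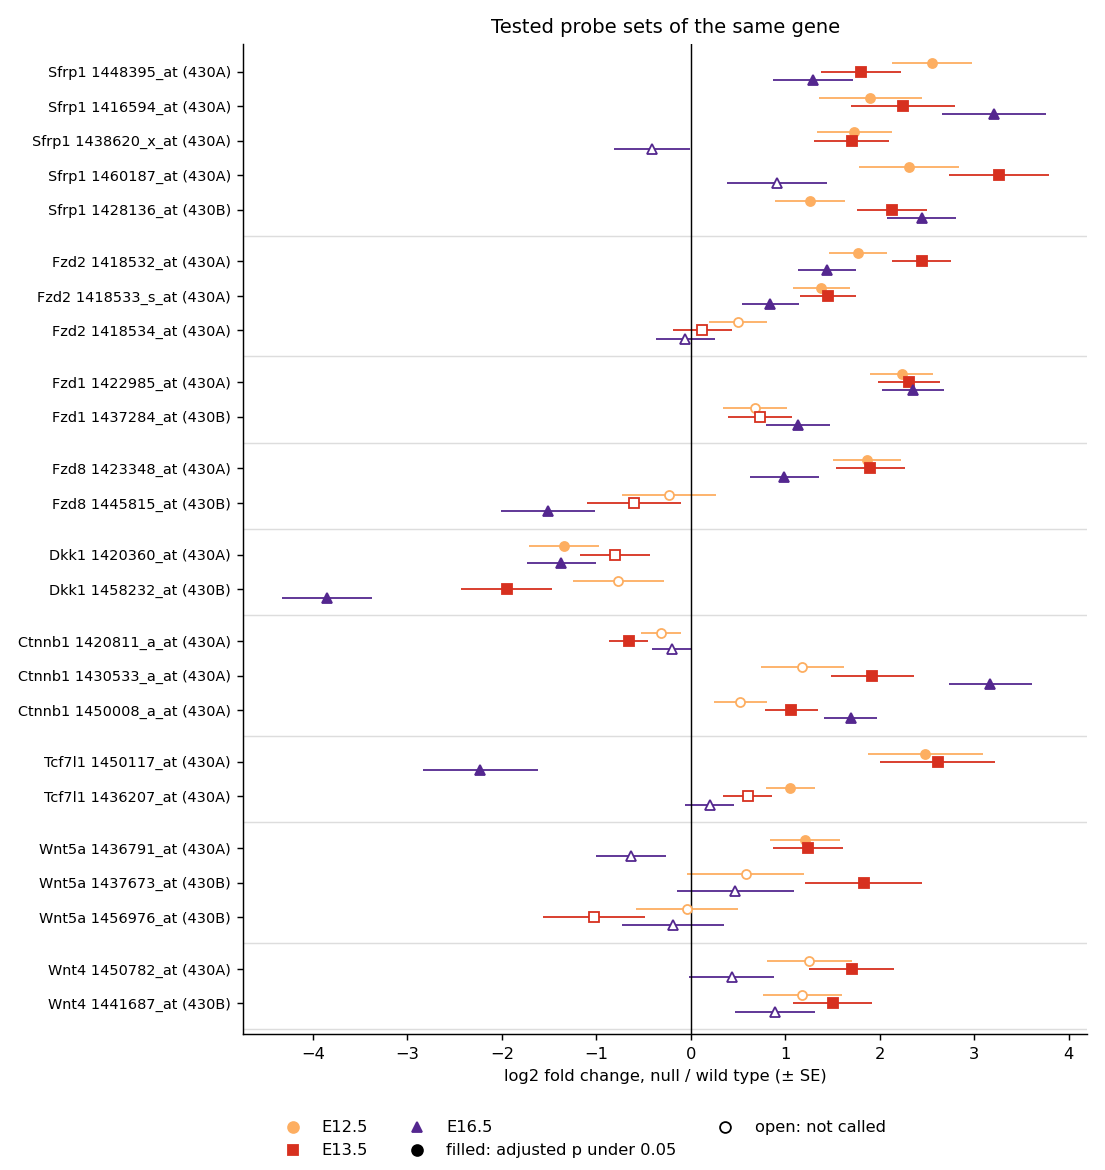
Log2 fold change of null over wild type (x axis, ± SE) for every tested probe set of 9 genes, with 1 symbol per stage, filled where called. The Sfrp1 and Dkk1 probe sets mostly lie on 1 side of 0, whereas those of Ctnnb1, Fzd8, Wnt5a and, at E16.5, Tcf7l1 lie on both.

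These counts shrank when single samples were left out. At E12.5 the 19 called probe sets became 8 without null replicate 2, 9 without wild type replicate 1 and 7 without wild type replicate 2. At E13.5 the 24 became 14 without null replicate 1 or without wild type replicate 2, and at E16.5 the 22 became 11 to 14, depending on the sample. Genes that kept their call whichever sample was left out were Axin2, Fzd1, Fzd2, Fzd8, Sfrp1 and Sfrp2 at E12.5. At E13.5 they were Axin1, Fzd1, Fzd2, Fzd8 and Sfrp2, and at E16.5 Fzd1, Fzd2, Sfrp2 and Tcf7l2. In the average 13 of 16 kept it, the exceptions being Ctnnb1, Tcf7l1 and Wnt5a.

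Markers of several cell types moved with the same groups. All marker counts stand beside 10.9%, 14.6% and 20.8% of all genes rising at the successive stages, and 7.45%, 9.24% and 15.1% falling. Of 9 stromal markers, 6 rose at E12.5, 6 at E13.5 and 3 at E16.5, where 1 fell. Their summed signal was 81524 to 94145 in null kidneys, against 33051 to 37547 in wild type kidneys at E12.5. It was 81578 to 92906 in null kidneys, against 33273 to 36473 in wild type kidneys at E13.5, and 104925 to 115526 in null kidneys, against 53983 to 61142 in wild type kidneys at E16.5. At each stage the lowest null sum exceeded the highest wild type sum. Of 7 endothelial markers 6, 5 and 4 rose at the successive stages, with sums of 17992 to 20504 in null kidneys, against 4251 to 4489 in wild type kidneys at E12.5 and 26350 to 26542 in null kidneys, against 6951 to 9728 in wild type kidneys at E16.5. Of 5 macrophage markers 4, 2 and 4 rose, and their sum was 12735 to 13474 in null kidneys, against 3188 to 3764 in wild type kidneys at E12.5.

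Sums of cap mesenchyme and ureteric epithelium markers were lower in nulls. Of 8 cap mesenchyme markers 4, 3 and 3 fell while 2, 2 and 1 rose, and their sum was 14684 to 15589 in null kidneys, against 25331 to 37489 in wild type kidneys at E12.5. Of 9 ureteric epithelium markers with a probe set 8 were tested, 1, 1 and 0 rose, 3, 1 and 1 fell, and the sum was 4952 to 8687 in null kidneys, against 15720 to 15932 in wild type kidneys at E12.5. Of 5 early nephron markers 3, 2 and 1 rose and none fell, and of 3 podocyte markers 2, 1 and 2 rose. Of 3 erythroid markers 0, 1 and 3 fell. The joint muscle and cartilage sum and the neuron sum were higher in nulls at E12.5 and E13.5, whereas that of adrenal and gonad was not. Among 3 tested muscle and cartilage markers 2, 1 and 1 rose, and 0, 1 and 0 fell. The muscle marker Acta1 was not higher, with -0.31 ± 0.55 at E12.5 and a fall of -1.91 ± 0.55 at E13.5. Among 3 tested neuron markers 2, 2 and 1 rose, and 0, 0 and 1 fell. Among 4 tested adrenal and gonad markers 1, 0 and 1 rose, and 0, 0 and 1 fell. The muscle and cartilage sum was 13260 to 13896 in null kidneys, against 3642 to 4512 in wild type kidneys at E12.5, and the neuron sum 4043 to 4202 in null kidneys, against 1418 to 2040 in wild type kidneys at E12.5. At E13.5 the muscle and cartilage sum was 4280 to 5467 in null kidneys, against 2950 to 3034 in wild type kidneys, and the neuron sum 2518 to 4955 in null kidneys, against 1400 to 1604 in wild type kidneys. The adrenal and gonad sum was 2080 to 2786 in null kidneys, against 2206 to 2493 in wild type kidneys at E12.5. At E16.5 the muscle and cartilage and the neuron sums were 1427 to 1847 and 838 to 1060 in null kidneys, against 1640 to 1872 and 930 to 1101 in wild type kidneys. In the adrenal and gonad list 1 gene, Amh, lay at or below the floor in every sample, and in the other lists no gene did. The part of these cell types in the member differences was not tested.

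In wild type kidneys no member was called between E13.5 and E12.5 by limma, where 0.262% of all genes (0.163% rose, 0.0991% fell) and 0.393% of all probe sets (0.308% rose, 0.0851% fell) were called. At an unadjusted p under 0.05, 11 of the 59 member probe sets differed (18.6%), beside 11.2% of all probe sets, and 8 of the 35 genes by the probe sets read. The differences of the probe sets read ran from -0.78 (Fzd2) to 1.20 (Dkk2).

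In wild type kidneys, 2 Tcf factors, Wnt5a and 4 receptors rose at E16.5 against E13.5 by the probe sets read. At E16.5 against E13.5, 7 genes rose and 1 fell, beside 19.5% of all genes called (10.2% rose, 9.24% fell). Tcf7l1 had 9919 and 11409 at E16.5, against 1251 and 978 at E13.5, a rise of 3.27 ± 0.61 or 9.61-fold (adjusted p = 0.003). Its other probe set 1436207_at was not called (0.13 ± 0.26). Tcf7l2 had 1943 and 935 at E16.5, against 221 and 198 at E13.5, a rise of 2.69 ± 0.39 or 6.44-fold (adjusted p = 0.000539). Wnt5a had 2049.5 and 1413 at E16.5, against 353 and 199 at E13.5 (2.68 ± 0.37, adjusted p = 0.000393), and its probe set 1437673_at rose too (2.03 ± 0.62). The remaining Wnt5a probe set, 1456976_at, ran the other way without being called, with 776 and 616 at E16.5, against 1449.6 and 2072 at E13.5 (-1.33 ± 0.54, adjusted p = 0.0979). The stages did not overlap on the probe sets read.

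Among the receptors, Fzd5 (1455604_at), a Frizzled of epithelial cells, had 10238 and 5881 at E16.5, against 1430.4 and 2079 at E13.5 (2.17 ± 0.40, adjusted p = 0.00269). Fzd6, which acts in planar polarity, rose by 1.76 ± 0.45, Fzd4 by 1.71 ± 0.44 and Lrp6 by 1.15 ± 0.38. The 430B probe sets 1458904_at of Fzd6 (0.86 ± 0.80) and 1434756_at of Fzd4 (0.31 ± 0.41) were not called. The member that fell was Sfrp4 (1451031_at), with 793 and 538 at E16.5, against 1302 and 1132 at E13.5 (-0.89 ± 0.28, adjusted p = 0.0402). Fzd5, Tcf7l1, Tcf7l2 and Wnt5a kept their calls whichever sample was left out. Over probe sets, 9 rose and 1 fell (20.5% of all probe sets called, 11.5% rose and 9.07% fell), and the 10 became 5 without wild type E13.5 replicate 1, 4 without E16.5 replicate 1 and 6 without E16.5 replicate 2.

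**Figure D5:**
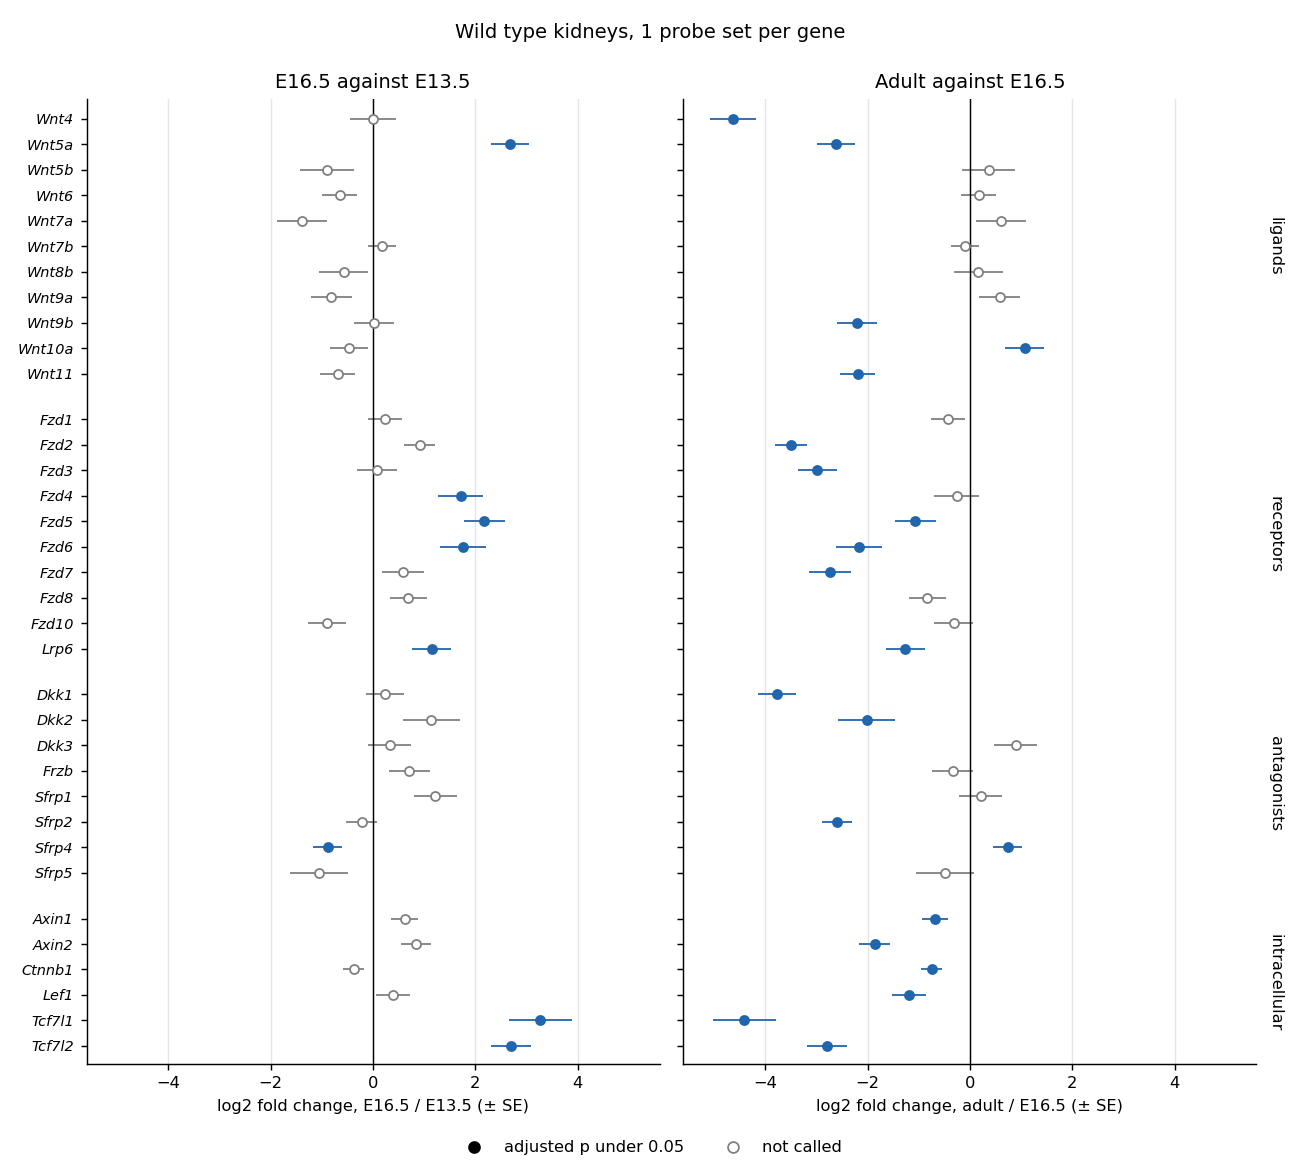
Log2 fold change (x axis, ± SE, n = 2 samples per group) of the 35 tested member genes in wild type kidneys, E16.5 over E13.5 on the left and adult over E16.5 on the right. Filled blue points passed an adjusted p of 0.05. Tcf7l1, Tcf7l2 and Wnt5a lie right of 0 on the left and left of 0 on the right, and 19 genes are filled left of 0 in the adult panel.

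In the adult kidney most of the changed members were dimmer than at E16.5, and all 6 intracellular genes fell by the probe sets read. Axin1 was near the threshold (-0.68 ± 0.26, adjusted p = 0.0471), and its probe set 1426967_at was not called (-0.58 ± 0.53). The Axin1, Ctnnb1 and Lef1 calls did not hold in every fit with a sample left out. Of the 35 genes, 2 rose and 19 fell, beside 47.0% of all genes called (22.3% rose, 24.7% fell), and the median log2 fold change was -0.83, against 0.05 over all genes. Wnt4 had 290.5 and 55.7 in adult kidneys, against 3262 and 4784 at E16.5, and 1 adult signal lay below the floor (-4.64 ± 0.45, adjusted p = 3.66e-06). Its 430B probe set fell too (-2.97 ± 0.42). Tcf7l1 had 1344 and 186 in adult kidneys, against 9919 and 11409 at E16.5 (-4.41 ± 0.61, adjusted p = 7.63e-05), and the adult samples stood far apart. Dkk1 had 163 and 108 in adult kidneys, against 1702 and 1924 at E16.5 (-3.77 ± 0.37, adjusted p = 4.74e-06). Fzd2 had 502 and 368 in adult kidneys, against 4785 and 4971 at E16.5 (-3.50 ± 0.31, adjusted p = 1.73e-06), and all 3 of its probe sets fell.

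The ureteric ligands Wnt9b (-2.21 ± 0.39) and Wnt11 (-2.19 ± 0.34) fell, as did Wnt5a (-2.61 ± 0.37). The Wnt5a probe set 1456976_at ran the other way here too, with 1415 and 1712 in adult kidneys, against 776 and 616 at E16.5 (1.17 ± 0.54, adjusted p = 0.098), and a Fzd6 probe set, 1458904_at, was at 0.90 ± 0.80 (not called). Wnt7b, the collecting duct ligand, had 1358 and 1379.9 in adult kidneys, against 1461 and 1455 at E16.5, and its difference of -0.09 ± 0.27 was not called. The receptors Fzd3 (-2.98 ± 0.39), Fzd7 (-2.73 ± 0.41), Fzd6 (-2.17 ± 0.45), Lrp6 (-1.26 ± 0.38) and Fzd5 (-1.07 ± 0.40) fell, as did the antagonists Sfrp2 (-2.60 ± 0.30) and Dkk2 (-2.02 ± 0.55). Calls of Lrp6, Fzd5 and Dkk2 did not hold under every processing alternative or in every fit with a sample left out. Fzd1, Fzd4, Fzd8 and Fzd10 were not called by the probe sets read, the 430B probe set of Fzd8 falling (-1.31 ± 0.50). The members that rose were Wnt10a and Sfrp4. Wnt10a (1460657_at) had 490.2 and 484 in adult kidneys, against 281 and 192 at E16.5 (1.07 ± 0.38, adjusted p = 0.0365). Sfrp4 had 1173 and 1013 in adult kidneys, against 793 and 538 at E16.5 (0.74 ± 0.28, adjusted p = 0.0496). Both calls were lost without 3 of their 4 samples.

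Sfrp1, Dkk3, Sfrp5 and Frzb were antagonists not called against E16.5. The Sfrp1 signals were 6743 and 2501 in adult kidneys, against 3872 and 3274 at E16.5 (0.21 ± 0.42), and the probe set 1416594_at rose (1.66 ± 0.55). Against E12.5, Sfrp1 rose in the adult by 2.20 ± 0.42 and against E13.5 by 1.43 ± 0.42. Dkk3 also rose against E12.5 (1.23 ± 0.42) and E13.5 (1.23 ± 0.42). Against E12.5, 5 members rose and 11 fell, beside 44.2% of all genes called (19.1% rose, 25.0% fell). Against E13.5 4 rose and 12 fell, beside 43.6% (19.5% rose, 24.1% fell). These comparisons share the adult samples. Adult and embryonic RNA were extracted by different methods, which cannot be told apart from age. Over probe sets, 3 rose and 31 fell against E16.5 (42.7% of all called, 18.0% rose and 24.6% fell), and the 34 became 22 without adult replicate 1. Against E12.5 7 rose and 21 fell (35.3% called, 15.1% rose and 20.2% fell), and against E13.5 6 rose and 22 fell (36.3% called, 14.9% rose and 21.4% fell).

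Genes of the pathway outside the set were counted from a list of 60, of which 51 were tested. In nulls 15 rose and 2 fell at E12.5, 20 rose and 2 fell at E13.5 and 13 rose and 2 fell at E16.5, beside 18.4%, 23.8% and 35.9% of all genes called, so that the E16.5 share lay below the background. Their median log2 fold change was 0.56, 0.67 and 0.27 at these stages, beside -0.05, -0.02 and 0.02 over all genes. Of 14 tested genes of planar polarity and alternative receptors, 7, 9 and 3 rose and none fell. For this list and those that follow, 10.9%, 14.6% and 20.8% of all genes rose, and 7.45%, 9.24% and 15.1% fell. Ptk7, a co-receptor of polarity signalling, rose by 4.50 ± 0.37, 4.44 ± 0.37 and 1.65 ± 0.37, and its wild type signals at E12.5 and E13.5 all lay below the floor, so these fitted values depend on it. Vangl2, a core polarity protein, rose by 1.78 ± 0.30, 1.20 ± 0.30 and 0.84 ± 0.30. Invs, the inversin that balances the branches of Wnt signalling, rose by 1.96 ± 0.34 and 1.81 ± 0.34 at the early stages and had 0.38 ± 0.34 at E16.5.

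Of 11 tested cytoplasmic genes 4, 4 and 3 rose, and 1, 1 and 0 fell. Gsk3b, the kinase that marks β-catenin for degradation, rose by 2.37 ± 0.33 and 2.30 ± 0.33, with -0.26 ± 0.33 at E16.5. Csnk1a1, the priming kinase, fell at E12.5 (-0.77 ± 0.24) and E13.5 (-0.75 ± 0.24). Of 8 nuclear cofactors 2, 3 and 2 rose and 0, 0 and 1 fell, among them Pygo2, a β-catenin cofactor, which rose by 1.14 ± 0.29, 1.47 ± 0.29 and 1.26 ± 0.29. Of 3 secretion genes 0, 1 and 2 rose, Porcn, which acylates Wnt proteins, by 1.04 ± 0.31 at E16.5. Of 3 other antagonists 0, 1 and 1 rose, Kremen1, the partner of Dkk1 at the membrane, by 1.82 ± 0.42 at E16.5.

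R-spondins strengthen Wnt signals through Lgr receptors. Of 7 tested genes for R-spondins and receptor turnover none rose, and Rspo3 fell at every stage (-0.98 ± 0.31, -1.39 ± 0.31 and -1.50 ± 0.31). Of 9 tested target genes 3, 4 and 3 rose and none fell. Myc rose by 0.81 ± 0.25, 1.49 ± 0.25 and 0.67 ± 0.25, and Ephb3, an Eph receptor, by 1.27 ± 0.37, 1.13 ± 0.37 and 1.61 ± 0.37, while Ccnd1 was not called (-0.17 ± 0.22, 0.13 ± 0.22 and -0.23 ± 0.22). In the adult against E16.5, 5 of the 51 pathway genes rose and 22 fell. Taken either way this share was near the 47.0% of all genes called, of which 22.3% rose and 24.7% fell. The pathway genes were thus called mostly downwards, and their median log2 fold change was -0.58, against 0.05 over all genes.

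The remaining 12 members had no tested probe set. These were the ligands Wnt1, Wnt2, Wnt2b, Wnt3, Wnt3a, Wnt8a, Wnt10b and Wnt16, the receptor Fzd9, the co-receptor Lrp5, and the antagonists Dkk4 and Wif1. Their highest signal in any sample ran from 44.5 for Wnt3 to 604.3 for Wnt2. In no group did their mean signal pass the filter, so their differences were not tested, and this does not show that these genes are silent. The Wnt2 signals at E12.5 were 373 and 449 in null kidneys, against 145 and 188 in wild type kidneys. They were 561 and 295 in null kidneys, against 252 and 312 in wild type kidneys at E13.5, and 269 and 604 in null kidneys, against 133 and 94.5 in wild type kidneys at E16.5. The null signals were above the wild type signals at E12.5 and E16.5 and overlapped them at E13.5.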

How the data were processed

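Signal intensity was measured on 28 Affymetrix arrays, 14 samples on each of 2 designs, 430A and 430B. The deposited values are MAS5 signals, that is linear intensities scaled by the authors to a common trimmed mean, per the submitters' processing notes and the array values. The MAS5 version and settings are not given in the sources used here. Probe sets were named from the platform annotation where it gives 1 symbol. The members and all gene lists were chosen with earlier results of these data known.

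Signals below a floor, set per design at the 20th percentile (86.1 for 430A, 148.1 for 430B), were set to it and log2 was taken. Probe sets whose highest group mean was above the 50th percentile of all log2 values of the design were kept, 14576 on 430A and 15988 on 430B, after 100 copies shared with 430A were dropped from 430B. One linear model per probe set over all 7 groups was fitted on each design with limma 3.58.1 in R 4.3.3 (7 residual degrees of freedom). Benjamini-Hochberg adjustment ran over all 30564 probe sets, and the threshold was 0.05. The script was tested on simulated data. The number of arrays limits precision.

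A gene was read by a tested probe set, 430A before 430B, then by the highest mean. Values per sample are given for members called in the stage average, at 2 or more stages or in the F test, and for up to 4 in each direction of the wild type comparisons. Up to 3 called pathway genes per list are named, together with members of small counts chosen after their values were seen.

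Replicate numbers did not pair the samples: correlations of same-numbered deviations ran from -0.35 to 0.28 on 430A, with 7 of 21 pairs over 0.1, and from -0.18 to 0.11 on 430B, with 1 of 21. The run records of 2 arrays of adult replicate 2 carried each other's chip type and were exchanged when scan days were assigned. Python 3.11.15, pandas 2.3.3 and scipy 1.17.1 were used for tables, and matplotlib 3.10.9 for figures. Alternatives were an added offset instead of the floor, no filter, median centring, quantile normalization, a replicate block, scan day as a random block, the actin ratio as a covariate, and leaving out each sample.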

Additional observations from a re-analysis of the deposited data

Results flagged for a closer look

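The difference between null and wild type kidneys was itself found to change between stages, by limma's moderated F test over the 3 stages, for 6 members. The adjusted p was 0.000929 for Tcf7l2 and 0.00341 for Tcf7l1, both higher in nulls at E12.5 and E13.5 and lower at E16.5. This holds for the probe sets read, and the other Tcf7l1 probe set 1436207_at showed no reversal (F test adjusted p = 0.275). The adjusted p was 0.0151 for Axin2, 0.0353 for Lrp6 and 0.0358 for Wnt5a, whose fitted differences were above 0 at the first stages and below 0 at E16.5. It was 0.0408 for Wnt9a, whose difference was -1.03 at E13.5 and 1.22 at E16.5. The null E16.5 arrays were read on another type of scanner, which cannot be told apart from the null effect at that stage.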

How the results depend on the processing

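Counts are of the 59 member probe sets called. With the actin ratio as a covariate 1 was called at E12.5, 5 at E13.5, 14 at E16.5, 11 in the average and 5 in the F test, against 19, 24, 22, 34 and 8. Quantile normalization left 4 in the F test. Leaving out 1 sample at a time gave 7 to 14 at E12.5, 14 to 22 at E13.5, 11 to 14 at E16.5, 30 to 35 in the average, 3 to 10 in the F test and 4 to 8 for wild type E16.5 against E13.5. For adult kidneys it gave 22 to 26 against E12.5, 23 against E13.5 and 22 to 32 against E16.5. The F test had 5 and 4 without wild type E12.5 replicates 1 and 2, 3 and 5 without null E16.5 replicates 1 and 2, and 4 and 3 without wild type E16.5 replicates 1 and 2. The replicate block gave 19, 24, 21 and 34 in the null comparisons and 7 in the F test, each within 1.5 times the count without it, and 6 of 112 calls of single genes were lost. The numbers do not pair the samples. Reversed values were Ctnnb1 under quantile normalization, at 0.09 for E13.5 and 0.03 in the average, and Tcf7l1 with the actin ratio, at -0.45 in the average. The cause was not tested. Median centring moved the median of all probe sets from -0.02 to -0.21 at E12.5 and from -0.22 to 0.14 at E16.5, and at E12.5 13 member probe sets rose and 5 fell, against 16 and 3. Without a filter 14 rose and 0 fell at E12.5, and 7 rose and 3 fell for wild type E16.5 against E13.5. For adult against E13.5, 1 rose and 22 fell without adult replicate 1, against 6 and 22. The average over E12.5 and E13.5 alone, chosen after seeing the data, called 33. Of 112 calls of single genes, 45 were lost and 1 reversed with the actin ratio, 31 were lost without a filter, 10 each under median centring and quantile normalization, 4 with scan day and 3 with the offset. Probe sets with signals near the floor allow no statement on small differences.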
